A study of Mus musculus with 150 samples.

Results

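Tumours T7 and T9 were dissected separately from the lungs of 1 mouse, 30 weeks after tumour induction, and their DNA copy number was compared bin by bin along the 19 autosomes. The compared cells were all those labelled T7 or T9 whose noise did not exceed 0.267, which left 98 of 100 cells, 48 of 50 from T7 and 50 of 50 from T9, out of 145 of 150 cells kept in the whole series. Both tumours came from the same animal of a KP strain on a mixed C57BL/6 x Sv129 background, so genotype, age and treatment did not differ between them. Both carry a floxed pair of Trp53 alleles, which Cre recombinase deletes in part, and per the labels the strains also bring a Cre-dependent tdTomato or Luciferase reporter at the Rosa26 locus. The labels give induction with an adenovirus, either AdSPC-Cre, which drives Cre from the promoter of a surfactant gene of alveolar type 2 cells, or AdCMV-FlpO, and do not say which this mouse received. AT2 cells, the surfactant-making alveolar type 2 cells of the lung, are the labelled source, and DNA copy number holds no marker by which that could be checked. Each tumour is 1 sample, so differences between T7 and T9 are described without a test, and the spread given is that over cells of 1 tumour.

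Tumour cells often hold extra or missing copies of whole chromosomes, which arise when chromosomes are shared out unequally at mitosis, and of chromosome arms or segments, which need a DNA break. A copy number change that an early tumour cell acquires is passed to its descendants, while one acquired later is carried by some of the cells. Mouse chromosomes have their centromere at one end, so a break divides a chromosome into a part next to the centromere, here called the start, and a part next to the far telomere, here called the end.

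In shallow sequencing of DNA from single cells, the reads in each genome bin, here about 500 kb long, are compared with the rest of the same cell. The value used is the deposited log2 ratio, centred so that the typical autosomal bin of each cell lies at 0, and positive values stand for more DNA than that. A doubling of the whole genome is invisible on this scale. The cells held a median of 69.3 Mb of sequenced bases in T7 (range 24.6 to 140.3) and 56.7 Mb in T9 (43.3 to 82.1). Noise, the spread between neighbouring bins of a cell, had a median of 0.146 in T7 (0.0932 to 0.235) and 0.133 in T9 (0.111 to 0.209). The cells left out were T7 cell 180056, with noise of 0.501, and T7 cell 180093, in which 59.3% of the autosomal bins were covered. No column was repeated, and the highest correlation of a T7 cell with a T9 cell was 0.48 over the autosomal bins, less 38 bins that stood out from their surroundings in both tumours.

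The profile of a tumour is the median of each bin over its cells, and the difference is the T7 value minus the T9 value. Of 4806 autosomal bins, 539 (11.2%) were higher in T7 by at least 0.3 and 141 (2.93%) were higher in T9 by at least 0.3, which makes 680 bins (14.1%) past 0.3 in either direction. Most of these bins lay in long regions. The regions were drawn from these same differences, so the count that follows is a description and no separate support. Of the 680, 666 lay in 6 long regions that segmentation of the difference gave, and these regions held 852 bins over 424.7 Mb, 17.7% of the autosomal bins. The bin-to-bin noise of the difference profile was 0.0567. Of the other 14 bins, 9 lay on chromosome 4, 4 on chromosome 19 and 1 on chromosome 18, as the plot of both profiles and their difference shows.

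**Figure D1:**
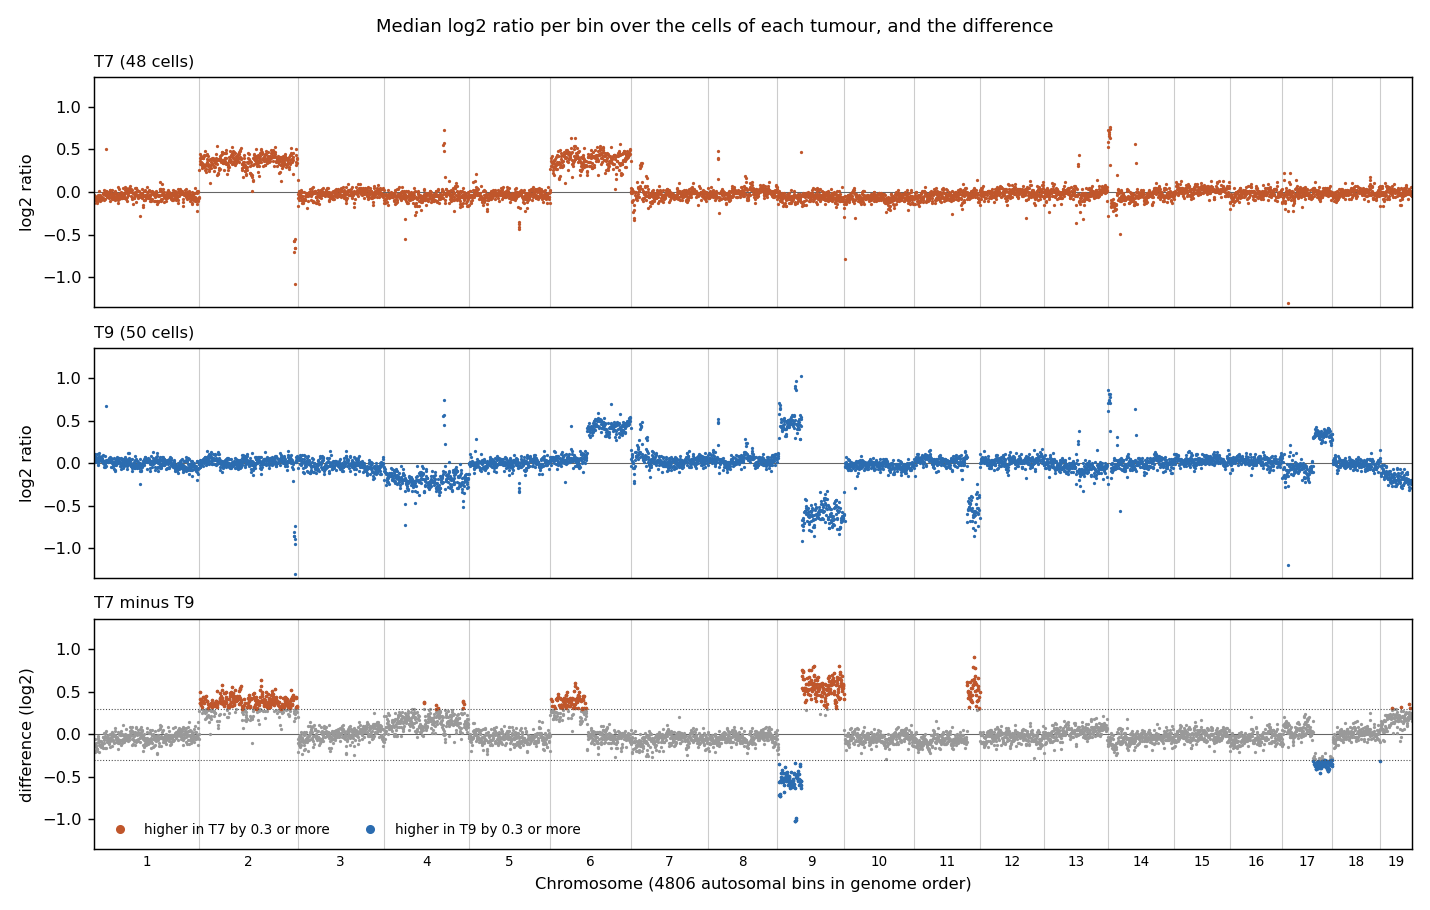
Median log2 ratio of each autosomal bin (y axis) in genome order by chromosome (x axis) over 48 T7 cells (top) and 50 T9 cells (middle), and the T7 minus T9 difference (bottom), with dotted lines at 0.3 and -0.3 and values beyond the axis drawn at its edge. Coloured blocks of the difference lie on chromosomes 2, 6, 9, 11 and 17, while the narrow spikes on chromosomes 2, 4, 8 and 14 appear in both tumours and nearly vanish from the difference.

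T7 differed from T9 by extra DNA over all of chromosome 2 and over the start of chromosome 6. Chromosome 2, from 3050001 to 182013224 (GRCm38, 1782 protein-coding genes), lay at a median of 0.39 (SD 0.17, range -0.09 to 0.51) in 48 T7 cells and at 0.02 (SD 0.15, -0.54 to 0.30) in 50 T9 cells, a difference of 0.37. In 39 of 48 T7 cells its level was above that of every T9 cell. The other 9 T7 cells lay at 0.11 or lower, and no T7 cell lay between that level and 0.30. As centred here, T7 cells thus fell into a large and a small set. In some of the small set, such as 180085 and 180090, chromosome 9 also lay well below 0, so this split depends on the centring. Of the 359 bins, 247 were higher in T7 by at least 0.3 and none was higher in T9. Chromosome 2 reached the threshold of a gain, 0.32, in 35 of 48 T7 cells (72.9%, exact Clopper-Pearson 95% interval 58.2 to 84.7, for counting error only) and in 0 of 50 T9 cells, a count that still allows 6%.

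The start of chromosome 6, from 3050001 to 69219715 (434 protein-coding genes), lay at 0.38 (SD 0.12, range -0.02 to 0.76) in T7 cells and at 0.03 (SD 0.14, -0.18 to 0.77) in T9 cells, a difference of 0.34. The ranges overlapped in full because 2 T9 cells also lay high there, 180116 at 0.77 and 180109 at 0.53. Both cells were shifted on other chromosomes too, with chromosome 11 up to 99034871 at 0.78 and 0.27. A gain was called in 35 of 48 cells of T7 and in 2 of 50 of T9 (4%, 0.488 to 13.7). Among T7 cells, 46 of 48 lay above the T9 median.

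The end of chromosome 6 is the region both tumours shared. From 69219716 to 149586546 (686 protein-coding genes) it lay at 0.38 (SD 0.13, range -0.02 to 0.82) in T7 cells and at 0.42 (SD 0.16, 0.02 to 1.28) in T9 cells, a difference of -0.04. None of its 161 bins differed by 0.3 in either direction. Its gain was called in 39 T7 cells (81.2%, 67.4 to 91.1) and 41 T9 cells (82%, 68.6 to 91.4). In T7 the start and the end of chromosome 6 moved as 1 block, with levels within 0.1 of each other in 48 of 48 cells. In T9 the end lay above the start by at least 0.2 in 46 of 50 cells. The tumours thus shared extra DNA over this end but not its extent.

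T9 carried the other 4 regions. The start of chromosome 9, from 3491634 to 47252283 (450 protein-coding genes), lay at -0.04 (SD 0.11, range -0.43 to 0.03) in T7 cells and at 0.46 (SD 0.15, -0.14 to 0.95) in T9 cells, a difference of -0.51. In 48 of 50 T9 cells the level was above that of every T7 cell. The adjoining end, from 47252284 to 124495110 (749 protein-coding genes), lay at -0.02 (SD 0.16, -0.78 to 0.03) in T7 cells and at -0.60 (SD 0.13, -0.86 to -0.19) in T9 cells, a difference of 0.58. In 41 of 48 T7 cells this end was above every T9 cell, and its loss was called in 2 T7 cells (4.17%, 0.509 to 14.3) against 47 T9 cells. The start lay above the end by at least 0.2 in 1 of 48 T7 cells and 49 of 50 T9 cells. A median over the whole of chromosome 9 therefore mixes opposite values in T9.

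The end of chromosome 11, from 99034872 to 121982543, is the shortest of the 6 regions at 22.9 Mb but holds 476 protein-coding genes. It lay at -0.02 (SD 0.11, range -0.49 to 0.14) in T7 cells and at -0.54 (SD 0.21, -0.92 to 0.23) in T9 cells, a difference of 0.51. All 48 T7 cells lay above the T9 median, and 36 of 50 T9 cells lay below every T7 cell. Its loss was called in 1 T7 cell (2.08%, 0.0527 to 11.1) and 41 T9 cells (82%, 68.6 to 91.4). The rest of the chromosome lay at -0.03 (SD 0.10) in T7 and 0.02 (SD 0.15) in T9, and the end lay under it by at least 0.2 in 0 of 48 T7 cells and 48 of 50 T9 cells.

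The end of chromosome 17, from 59285304 to 94887271 (147 protein-coding genes), lay at -0.02 (SD 0.05, range -0.08 to 0.17) in T7 cells and at 0.31 (SD 0.15, 0.06 to 0.89) in T9 cells, a difference of -0.33. Here the T9 cells were spread without a gap, with quartiles at 0.24 and 0.46 on either side of the gain threshold. Only 22 of 50 T9 cells (44%, 29.99 to 58.7) were therefore called gained, although 42 of 50 reached 0.2, and 46 of 50 lay above every T7 cell. Among T7 cells, 0 of 48 reached 0.2 (up to 6.25%). The rest of chromosome 17 had a median of -0.04 in both tumours, with an SD of 0.06 in T7 and 0.15 in T9. The T9 cells differed among themselves there, with quartiles at -0.19 and 0.04. It lay at -0.1 or lower in 22 of 50 T9 cells and 4 of 48 T7 cells.

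**Figure D2:**
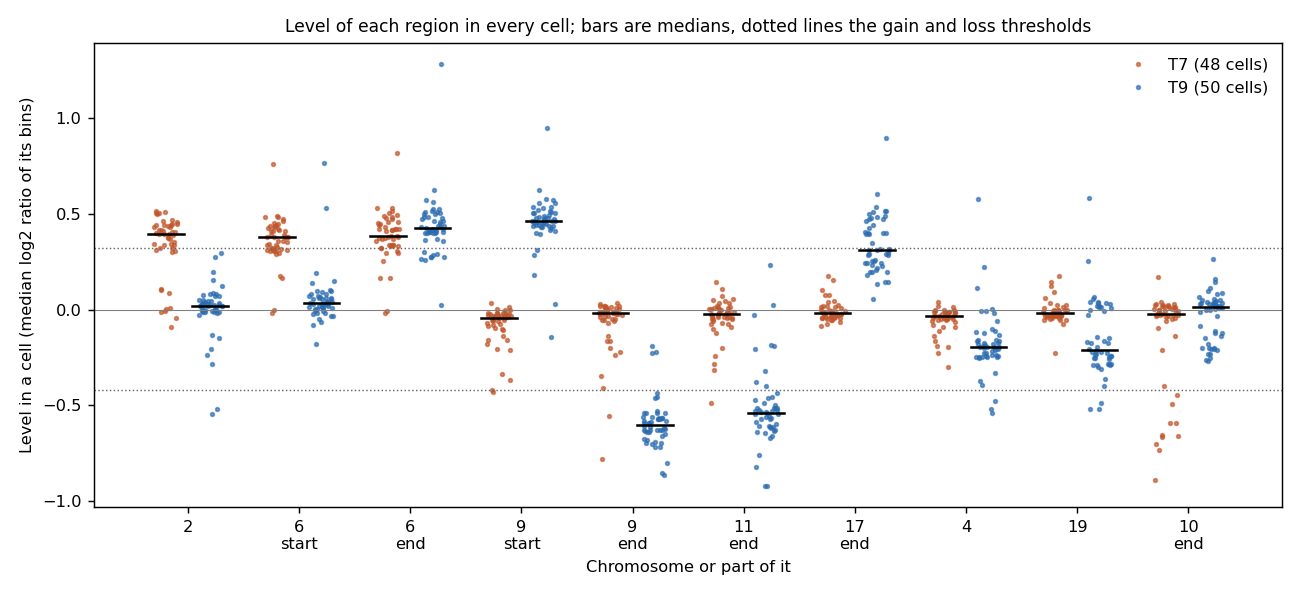
Level of each chromosome or part of it in every cell (y axis, median log2 ratio of its bins), for 48 T7 cells (left of each pair) and 50 T9 cells (right), with medians as bars and the thresholds of 0.32 and -0.42 as dotted lines. Most cells of the tumours separate on chromosome 2 and on both parts of chromosome 9, overlap on the end of chromosome 6, and T9 spreads without a gap on the end of chromosome 17.

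These shares depend on where the threshold lies and on the source of the ratio. With thresholds of 0.45 and -0.70, chromosome 2 was gained in 16.7% of T7 cells and the end of chromosome 9 was lost in 12% of T9 cells. With the ratio taken from deposited depth and each bin's median over all 3 tumours taken away, the same shares were 12.5% and 2%, and that step also takes away what most cells of the series have in common. The differences in level of the 6 regions stayed within 1 SD over cells under every alternative tried. The lowest and highest values were 0.34 and 0.41 for chromosome 2 and 0.52 and 0.63 for the end of chromosome 9. With the ratio from depth the start of chromosome 6 fell to 0.26, under 0.3. With cells centred on their mode the end of chromosome 17 stood at -0.26, also under 0.3 in size.

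Chromosomes 4 and 19 differed by less than the 6 regions and over their whole length. Chromosome 4 lay at -0.04 (SD 0.07, range -0.30 to 0.04) in T7 cells and at -0.20 (SD 0.17, -0.54 to 0.58) in T9 cells. It reached -0.1 or lower in 7 of 48 T7 cells and 42 of 50 T9 cells, but only 0 of 48 and 3 of 50 reached the threshold of a loss, -0.42. Chromosome 19 lay at -0.02 (SD 0.06, -0.23 to 0.18) in T7 and at -0.21 (SD 0.20, -0.52 to 0.58) in T9, at -0.1 or lower in 1 of 48 T7 cells and 33 of 50 T9 cells. Across T9 cells its quartiles were -0.28 and 0.01, so part of the T9 cells had a level like that of T7. Segmentation put no break on either chromosome in the difference profile. The whole-chromosome level of each of chromosomes 1, 3, 5, 7, 8, 10, 12 to 16 and 18 differed between the tumours by 0.07 or less, T7 being the lower. That offset moves with the centring, since the median difference over all bins was -0.01 as centred here and 0.03 with cells centred on their mode.

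Breaks were then located in each profile as steps of at least 0.2 between segments of at least 5 bins. T7 had 19 breaks and T9 had 20, of which 13 had a counterpart of the same direction within 3 bins in the other tumour. None of the 13 left a step in the difference profile. They bound short stretches, such as 174999822 to 178191768 near the end of chromosome 2, with steps of -1.07 and 1.05 in T7 and -0.94 and 0.96 in T9. The stretch on chromosome 4 from 111821644 to 114310270 had steps of 0.56 and -0.55 in T7 and 0.71 and -0.70 in T9, and the first part of chromosome 14, up to 7975667, ended with a step of -0.68 in T7 and -0.72 in T9. Bin by bin, 38 bins departed from their surroundings by at least 0.25 in the same direction in both tumours. The departures of all 4806 bins correlated with a Pearson r of 0.58 between the profiles and 0.20 without these 38 bins, where bins share their mappable sequence and base composition. Both tumours share the mouse and the reference genome, and the source of these narrow stretches was not tested.

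The breaks of 1 tumour that also gave a step in the difference were 2 in T7, both at the edges of a shallow stretch of chromosome 2, and 7 in T9, on chromosomes 6, 9, 11 and 17. A further 4 breaks in T7, on chromosomes 7 and 13, gave no step in the difference, and T9 had bins shifted the same way there. T7's extra DNA on chromosomes 2 and 6 reached both ends of each chromosome, whereas each T9 region had an edge inside a chromosome.

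The 4 main T9 breaks were looked for in each cell as the best step within 20 Mb, and a cell was counted when its step ran the same way as the T9 profile's and reached 50% of it. That profile step, between the mean levels on either side within the 20 Mb, was -1.14 on chromosome 9, -0.57 on chromosome 11, 0.43 on chromosome 17 and 0.38 on chromosome 6. On chromosome 9 such a step was found in 0 of 48 T7 cells and 47 of 50 T9 cells, and all 47 had it at the same edge between bins, at 47252284, with a median step over the 50 T9 cells of -1.16 (SD 0.29). Counting from 0.2 instead, 2 of 48 T7 cells and 49 of 50 T9 cells had a downward step within the 20 Mb, and for chromosome 11 this moved the T9 count by 1 cell, to 48 of 50. The last bin of the gained start, 46754666 to 47252283, is one of the 38 bins alike and stood at 0.47 in T7 and 1.03 in T9. With the bins alike left out, the edge was the same in 47 of 47 cells. Beside this edge lie Gm4791 on the left and Cadm1, which encodes a cell adhesion molecule of the immunoglobulin superfamily, on the right.

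On chromosome 11 such a step was found in 1 of 48 T7 cells and 47 of 50 T9 cells, at the very same edge, 99034872, in 43 of the T9 cells. A break can be placed no closer than a bin, and this edge between bins falls between Top2a, which encodes the DNA topoisomerase that untangles chromosomes at mitosis and ends at 99024199, and Igfbp4, which encodes a binding protein of insulin-like growth factors and begins at 99040005. Top2a itself was on the side not lost, at -0.02 (SD 0.15) in T7 and -0.05 (SD 0.19) in T9, and the first lost bin holds 9 keratin genes among its 15 listed genes. The first bin to the right of the edge stood at -0.08 in T7 and -0.70 in T9, and the last to the left at 0.003 and -0.03.

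The chromosome 17 step was found in 3 of 48 T7 cells, none within 1 bin of the profile's edge, and in 47 of 50 T9 cells, 39 of them at 59285304. The nearest protein-coding gene on the left is Nudt12, which encodes a hydrolase of NADH and ends at 59013367. On the right it is Efna5, which begins only at 62602957, several bins away. Efna5 encodes an ephrin, a ligand that guides axons and sets boundaries between cells. The chromosome 6 step was found in 1 of 48 T7 cells and 48 of 50 T9 cells, of which 33 had it at 69719313 and 40 within 1 bin of it. The edge in the difference profile lay 1 bin earlier, at 69219716. On the right of it the nearest protein-coding gene is Rpia, which begins at 70765720 and encodes an enzyme of the pentose phosphate pathway. The plot of bins around the 4 breaks shows that the levels pass from one side to the other within about 1 bin in T9 and stay level in T7.

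**Figure D3:**
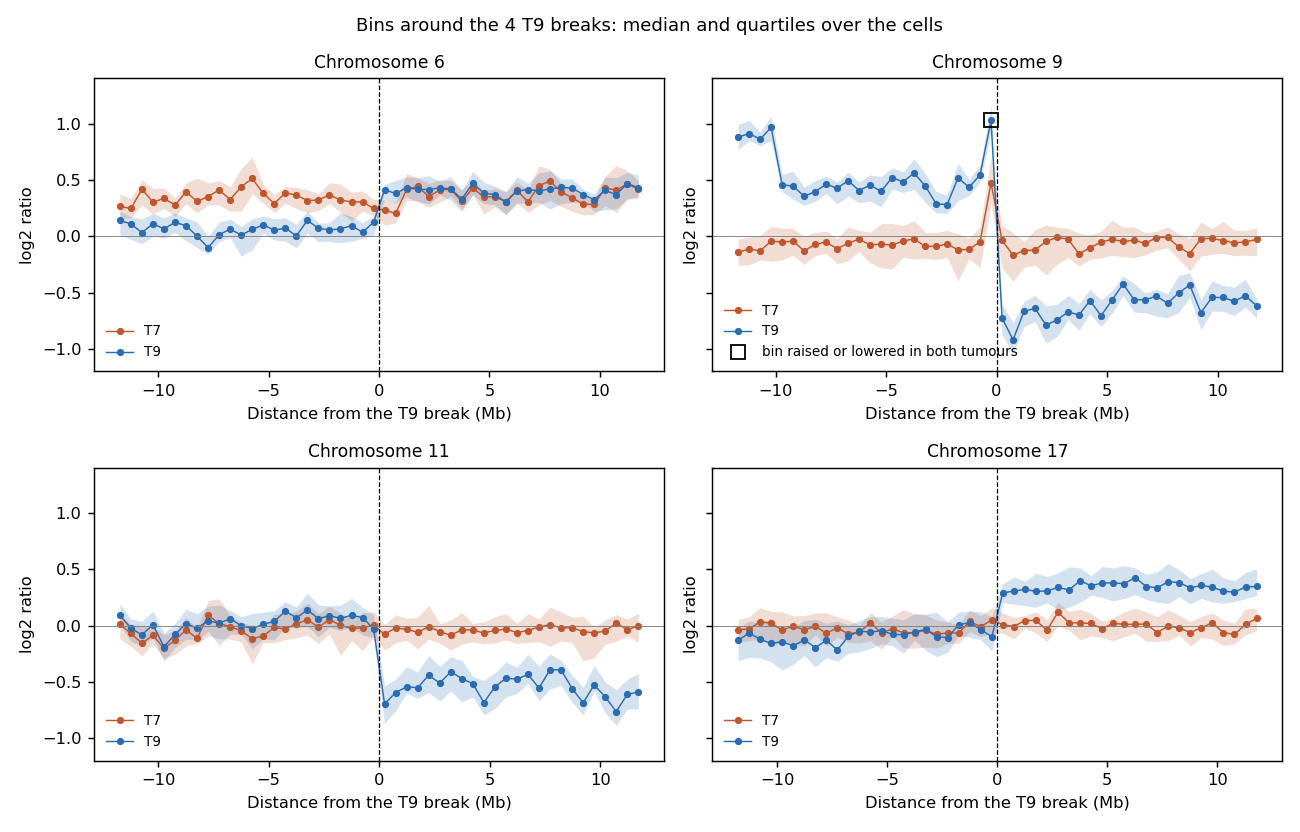
Median log2 ratio (points and lines) and quartiles over cells (shading) of the bins within 12 Mb of each of 4 T9 breaks, in 48 T7 cells and 50 T9 cells, by distance from the break in Mb (x axis). T9 steps at distance 0 while T7 stays level, and the square marks the chromosome 9 bin that stands high in both tumours.

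Inside the regions, segmentation set 3 short stretches apart from their surroundings. On chromosome 9, 35309467 to 37797553 lay at -0.10 (SD 0.15, range -0.77 to 0.10) in T7 cells and at 0.87 (SD 0.20, -0.14 to 1.49) in T9 cells, a difference of -0.97, which is the furthest of any stretch found. Its first 4 bins stood between 0.86 and 0.97 in T9, and the last at 0.46, as its neighbours did, since a segment had to hold at least 5 bins. In 49 of 50 T9 cells the stretch exceeded the rest of the gained start by at least 0.2 (median excess 0.44, SD 0.10), against 1 of 48 T7 cells (median -0.02, SD 0.12). The stretch holds 44 protein-coding genes, begins between Rpusd4 and Cdon, which encodes a co-receptor of hedgehog signalling, and ends among olfactory receptor genes, between Olfr875 and Olfr876.

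At the other end of that region, the first 4 bins of chromosome 9, 3491634 to 5458167, stood between -0.14 and -0.04 in T7 and between 0.06 and 0.12 in T9, below the rest of the gained start in T9. The next 2 bins stood at -0.01 and 0.01 in T7 and at 0.71 and 0.58 in T9. After a bin at 0.29 in T9, the bins from 6933068 to 8407968 stood between 0.63 and 0.69 there. Those from 8407969 to 9882868 stood between 0.43 and 0.48. Birc2, Birc3 and Yap1 lie in the higher bins, which segmentation did not set apart. Over the 5 bins to 5949800, the level lay below the rest of the start by at least 0.2 in 1 of 48 T7 cells and 43 of 50 T9 cells.

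On chromosome 2, 97580542 to 100577416 was a shallow trough in T7, at 0.18 (SD 0.11, range -0.07 to 0.37) in T7 cells and at 0.01 (SD 0.15, -0.52 to 0.24) in T9 cells. It lay below the rest of chromosome 2 in 42 of 48 T7 cells and 26 of 50 T9 cells, and its median distance from that rest was -0.18 in T7 and -0.01 in T9. The single bin from 98579500 to 99078979 stood at 0.02 in T7 with an SD over cells of 0.52, the widest of its neighbours, and at 0.12 (SD 0.24) in T9. No protein-coding gene lies wholly within it, and Lrrc4c, which encodes a netrin-G ligand of synapses, spans its left edge.

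Cells of each tumour were then described by the set of regions called in them. Of T7's own 3 calls, gain of chromosome 2, of the start and of the end of chromosome 6, 31 of 48 T7 cells carried all 3 and 8 carried none. A cell with no call need not lack the raised levels. Among the 8, cells 180068, 180098 and 180099 had all 3 levels between 0.29 and 0.32, just under the threshold. Of T9's own 5 calls, the 4 regions above and gain of the end of chromosome 6, 16 of 50 T9 cells carried all 5, 24 carried 4 and 2 carried none. The 2 with none, 180111 and 180137, still stepped down on chromosome 9 at 47.25 Mb, by -0.41 and -0.55. The count with all 5 also depends on the end of chromosome 17, whose T9 levels lay on either side of the threshold. The 7 regions and the end of chromosome 10 together gave 11 distinct sets in T7 and 12 in T9. Calls of the other tumour's own regions in the same direction were few, since 3 of 48 T7 cells had a call in at least 1 of T9's private regions, and 2 of 50 T9 cells had a call in at least 1 of T7's.

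As centred here, the levels of chromosome 2 and chromosome 6 did not always go together in T7. Of the 9 T7 cells with chromosome 2 under 0.2, 5 had the start of chromosome 6 at 0.2 or more, whereas no T7 cell had chromosome 2 at 0.2 or more with the start of chromosome 6 under it. Over the other 39 T7 cells the heights of the 2 gains went together, with a Pearson r of 0.70 and a Spearman rho of 0.88, for levels that share the cell, its library and its centring. In the same 39 cells the height of chromosome 2 had a Spearman rho of 0.40 with sequenced bases and 0.12 with noise, and the part that amplification or depth has in these heights was not tested. In the 5 cells counted above, 180071, 180074, 180078, 180087 and 180088, both parts of chromosome 9 lay between -0.24 and -0.16. Their chromosome 2 level, and with it the count of 5, therefore depends on where each cell was centred. T7 cell 180067 stood apart with 0.45 on chromosome 2 and 0.76 and 0.82 on the start and end of chromosome 6. Cells 180063 and 180084 of T7 were flat over all 7 regions, each between -0.04 and 0.05, with 86.6 and 52.6 Mb of sequenced bases.

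**Figure D4:**
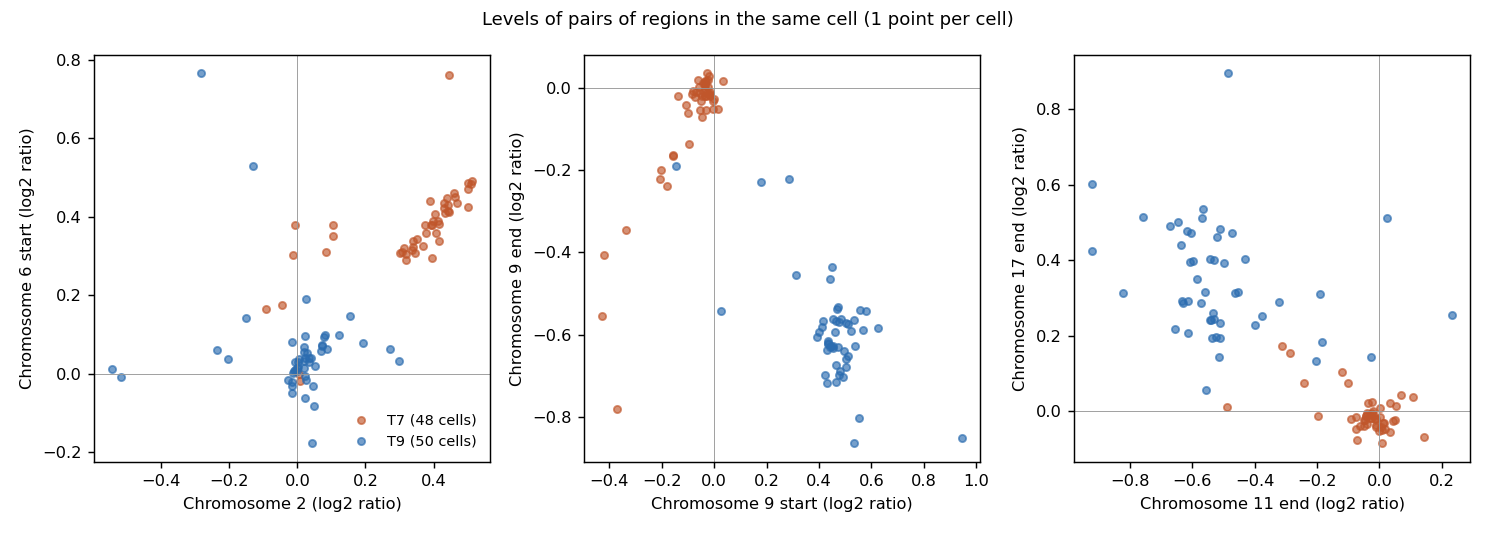
Levels of pairs of regions in the same cell (log2 ratio on both axes, 1 point per cell) for 48 T7 cells and 50 T9 cells. The T7 cells with chromosome 2 near 0 include 5 with the start of chromosome 6 at 0.2 or more, and 49 of 50 T9 cells have the start of chromosome 9 above its end by at least 0.2.

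Each cell was also set against both tumour profiles. Of 48 T7 cells 45 correlated best with the T7 profile and of 50 T9 cells 50 with the T9 profile, although a cell is part of its own tumour's profile. T9 cell 180109 did so by little, at 0.22 with T9 and 0.20 with T7. None of the T9 breaks looked for in single cells was found in it. The median correlation with the own profile was 0.62 in T7 (range 0.13 to 0.82) and 0.69 in T9 (0.22 to 0.79), and with the other tumour's profile 0.23 in T7 and 0.24 in T9. The profiles themselves had a Pearson r of 0.40 over 4806 bins and 0.35 without the 38 bins alike. The exceptions were T7 cells 180078, 180085 and 180090, and all 3 had chromosome 2 under 0 and the end of chromosome 9 at -0.24, -0.35 and -0.41. Their levels were shifted over many chromosomes, with the rest of chromosome 11 at -0.20, -0.32 and -0.33 as well.

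Within a tumour, cells departed from their own profile by 0.3 or more, in a running median of 21 bins, over a median of 3.40% of the autosomal bins in T7 (range 0.0208 to 20.8) and 3.88% in T9 (0.0208 to 44.8). In each tumour 6 cells departed over 10% or more. T9 cell 180116 departed the furthest, with the end of chromosome 6 at 1.28 and the start of chromosome 9 at 0.95. The longest such run was in T7, where all of chromosome 10 lay below the profile in up to 11 of 48 cells (22.9%, 12.03 to 37.3). In T9 the runs of the widest extent lay below the profile on the ends of chromosomes 1 and 3, from 147503978 in up to 7 of 50 cells and from 114023444 in up to 8 of 50, and above the profile on the end of chromosome 11, in up to 7 of 50.

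**Figure D5:**
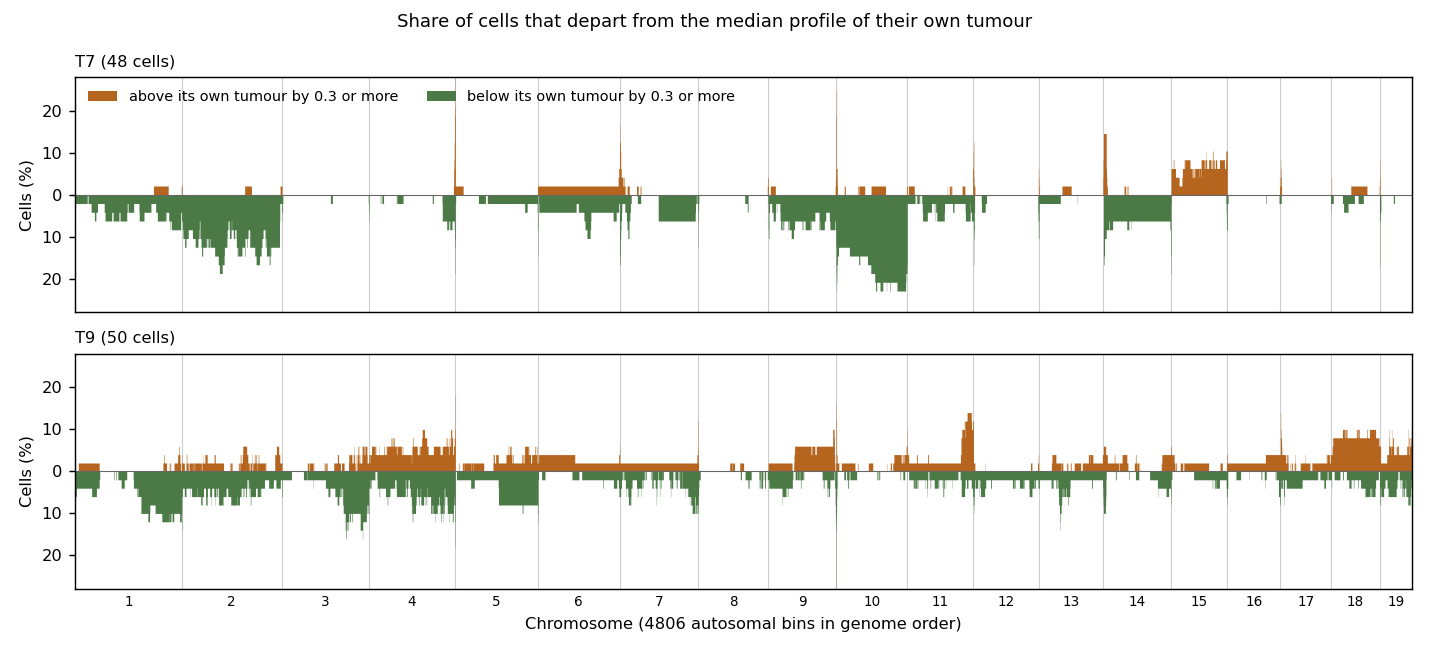
Share of cells (y axis, %) whose running median over 21 bins lies above (upward) or below (downward) the median profile of their own tumour by 0.3 or more, by autosomal bin in genome order, for 48 T7 cells (top) and 50 T9 cells (bottom). The deepest T7 block covers chromosome 10 and reaches 22.9% of cells, and the T9 blocks are spread over more chromosomes.

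Chromosome 10 in T7 differed among the cells that lost DNA. The end, from 67192102 to 130594993, was at -0.42 or lower in 10 T7 cells (20.8%, 10.5 to 35.0) and in no T9 cell, which leaves room for 6%. In 7 of the 10 the start was lost too, and in the other 3 the start lay between -0.05 and 0.001 while the end lay at -0.66, -0.44 and -0.49. Their best steps lay at 65.2, 57.4 and 71.7 Mb, with sizes of -0.63, -0.55 and -0.49. A best step in 1 cell can lie far from the edge of a profile. For the chromosome 6 step of T9 the positions ran from 64.7 to 79.2 Mb. Whether the 3 cells share an edge was therefore not tested. The T9 cells had the end of chromosome 10 at 0.01 (SD 0.13) and the T7 cells at -0.02 (SD 0.27). Smaller shifts were seen in both tumours, since this end lay at -0.1 or lower in 17 of 50 T9 cells and 13 of 48 T7 cells. The T9 quartiles were -0.14 and 0.04.

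The last comparison asked which genes of known roles fell into the differing bins. A gene's call is that of its bin, and its level below is the median over cells of a running median over 5 bins, so genes of 1 region are not independent. Of 110 listed genes, 29 lay in bins higher in T7 and 10 in bins higher in T9, 35.5% in all, beside 15.0% of all 20534 protein-coding genes and 14.1% of bins. By direction, 12.2% of all protein-coding genes lay in bins higher in T7 and 2.81% in bins higher in T9. The counts of each list below are to be read beside these shares, and a count of 0 higher in T9 in a short list is near its share. The lists were chosen with results of these tumours known, so that the excess over all listed genes is not evidence about the lists. The median difference over the listed genes was 0.01, beside -0.01 over all protein-coding genes.

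Of 17 lung adenocarcinoma oncogenes, 4 lay in bins higher in T7 and 2 in bins higher in T9. Nfe2l2, the gene of the oxidative stress factor NRF2, lies on chromosome 2 and stood at 0.44 (SD 0.23) in T7 and -0.02 (SD 0.20) in T9. The receptor kinase gene Met stood at 0.40 (SD 0.19) in T7 and 0.02 (SD 0.19) in T9, and the kinase gene Braf at 0.45 (SD 0.12) and 0.03 (SD 0.16), both on the start of chromosome 6. Map2k1, which encodes the MAP kinase kinase MEK1, lies on the lost end of chromosome 9 in T9 and stood at -0.05 (SD 0.18) in T7 and -0.64 (SD 0.16) in T9. Yap1, the coactivator gene of the Hippo pathway, stood at -0.08 (SD 0.17) in T7 and 0.58 (SD 0.15) in T9. Alk, a receptor kinase gene on the end of chromosome 17, stood at -0.03 (SD 0.10) in T7 and 0.35 (SD 0.16) in T9.

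Of 16 tumour suppressor genes, 1 lay in a bin higher in T7 and 2 in bins higher in T9. That is 18.75% in either direction, near the 15.0% of all protein-coding genes. Keap1, whose product marks NRF2 for degradation, stood at -0.04 (SD 0.15) in T7 and 0.45 (SD 0.13) in T9. The Nfe2l2 bin was thus higher in T7 and the Keap1 bin higher in T9. Smarca4, which encodes a chromatin remodelling ATPase, stood at -0.04 (SD 0.16) in T7 and 0.46 (SD 0.14) in T9. The histone methyltransferase gene Setd2 stood at -0.07 (SD 0.18) in T7 and -0.54 (SD 0.18) in T9.

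DNA repair and damage checkpoint genes were called in 9 of 14 cases, 6 in bins higher in T7 and 3 in bins higher in T9. Chromosome 9 carries kinases of this pathway on either side of the T9 break. Chek1, the checkpoint kinase gene in the narrow high stretch, stood at -0.10 (SD 0.15) in T7 and 0.87 (SD 0.20) in T9, while Atm, a kinase gene that responds to DNA breaks, stood at -0.03 (SD 0.19) in T7 and -0.54 (SD 0.15) in T9. Atr, which responds to stalled replication and activates Chek1, stood at -0.03 (SD 0.19) in T7 and -0.66 (SD 0.15) in T9. The mismatch repair gene Msh6 on chromosome 17 was at -0.01 (SD 0.08) in T7 and 0.32 (SD 0.16) in T9. Brca1, a gene of homologous recombination on the end of chromosome 11, stood at -0.04 (SD 0.17) in T7 and -0.49 (SD 0.24) in T9.

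Of 13 spindle checkpoint and mitosis genes, 6 lay in bins higher in T7 and 0 in bins higher in T9. The shares over all protein-coding genes were 12.2% and 2.81%. Aurka, a kinase gene of the spindle poles, stood at 0.42 (SD 0.23) in T7 and 0.02 (SD 0.16) in T9, and the spindle checkpoint gene Bub1b at 0.44 (SD 0.18) and 0.01 (SD 0.17), both with chromosome 2. Ttk, the checkpoint kinase gene also called Mps1, was at -0.03 (SD 0.20) in T7 and -0.56 (SD 0.14) in T9, with the lost end of chromosome 9. Birc5, which encodes survivin, was at 0.004 (SD 0.13) in T7 and -0.50 (SD 0.24) in T9, with the end of chromosome 11. Of 10 apoptosis regulators, 2 were called in each direction, among them Bcl2l11, which encodes the pro-apoptotic BIM, at 0.43 (SD 0.19) in T7 and 0.04 (SD 0.17) in T9, and Birc2, an inhibitor of apoptosis gene, at -0.06 (SD 0.17) and 0.57 (SD 0.16).

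Of 10 genes of JAK to STAT signalling, 4 lay in bins higher in T7 and 1 in a bin higher in T9, and the neighbours Stat3, Stat5a and Stat5b share 1 bin on the end of chromosome 11. Stat3, a transcription factor gene of interleukin-6 signalling, stood at -0.02 (SD 0.15) in T7 and -0.54 (SD 0.23) in T9. Of 8 TGF-beta receptors and SMADs, 3 lay in bins higher in T7 and 0 in bins higher in T9, all 3 on the lost end of chromosome 9. Tgfbr2, which encodes a receptor of TGF-beta, stood at -0.01 (SD 0.22) in T7 and -0.75 (SD 0.18) in T9, and Smad3, which encodes a signal transducer of that receptor, at -0.05 (SD 0.18) and -0.63 (SD 0.15). Of 11 genes of plasticity and mesenchymal state, 3 lay in bins higher in T7, all on chromosome 2, and 0 in bins higher in T9. Among them Zeb2, a repressor gene of epithelial genes, stood at 0.44 (SD 0.25) in T7 and -0.03 (SD 0.21) in T9, and Slc4a11, which encodes a membrane transporter, at 0.40 (SD 0.19) and 0.02 (SD 0.20).

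No gene of the list for alveolar type 2 identity differed between the tumours by 0.3, with 0 of 10 in either direction. Over all protein-coding genes 15.0% did, so for a list of 10 this count is not far from that share. Nor did the engineered loci given here differ by 0.3. Gt(ROSA)26Sor, the Rosa26 locus, lies on the shared end of chromosome 6 and stood at 0.42 (SD 0.15) in T7 and 0.43 (SD 0.18) in T9. Trp53 stood at -0.05 (SD 0.14) in T7 and 0.04 (SD 0.16) in T9, and bins of this size cannot show the deletion that Cre makes within it.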

How the data were processed

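The submitters' processing notes name BWA 0.7.17 and GRCm38. The authors deposited 3 tables over 5331 bins, and per the file headers they made the coverage signal as a depth for each bin and cell. The authors also deposited a log2 ratio per bin and cell, and a score, the weight of each bin. How the log2 ratio and the score were computed is nowhere stated in the sources used here, and neither is cell amplification. No doublet caller was run.

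Cells needed depth in 80% of autosomal bins and noise within 3 scaled median absolute deviations above the median (0.267). Cells were centred on their autosomal median. Profiles were segmented by least-squares partitioning (penalty 3 ln n for n bins, at least 5 bins). It was tried on simulated steps in the difference profile only, with the outcome not given here. Breaks of each tumour's own profile and narrow stretches were not covered by that simulation. Gain and loss thresholds were 0.32 and -0.42. Intervals and the limit of 3 cells for a count of 0 cover counting error only. Coordinates are GRCm38, and gene positions came from RefSeq. Python 3.11.15, numpy 2.4.6, pandas 2.3.3, scipy 1.17.1 and matplotlib 3.10.9 were used.

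The members, gene lists and thresholds were chosen with earlier results of these data known. The joining of segments into regions (allowing stretches under 10 bins), the bins alike, the departures within a tumour, the chromosome 10 classes, the narrow stretches, the 4 breaks located by cell and the pairs compared were chosen after values were seen. Named genes are the engineered loci, listed genes in bins past 0.3, up to 30, and those beside breaks, and some of these are not reported here. No sequence is shown because the differences span many bins. Alternatives varied the ratio, centring, filters, thresholds, penalty and summaries, and are given after the results.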

Additional observations from a re-analysis of the deposited data

How the results depend on the processing

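No paired analysis was possible because each group is 1 tumour and cell numbers do not pair cells. No difference past 0.3 changed sign. Of the differences near 0, chromosome 11 as a whole stood at 0.06 with a weighted mean over bins and 0.03 with the ratio from depth against -0.01, the end of chromosome 6 at 0.02 with cells centred on their mode against -0.04, and Gt(ROSA)26Sor at 0.004 with the ratio from depth and 0.02 with cells centred on their mode against -0.01. All 42 alternative values of the 6 private differences, 7 of the shared region and 273 at genes stayed within 1 SD over cells of the value given, as did 36 of 38 for whole chromosomes. The exceptions were chromosome 9, at 0.19 with a weighted mean over bins and 0.28 with the ratio from depth, against 0.43, where gained and lost parts are mixed. Past 0.4 in place of 0.3, 319 bins were higher in T7 and 87 in T9, and the other 18 counts stayed within 1.5 times. The T9 break on chromosome 6 lay at 56.7 Mb with the ratio from depth, and the other 19 positions held.

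Shares of cells moved in 18 of 24 cases. With thresholds of 0.45 and -0.70, T7 shares were 16.7% for chromosome 2 and 14.6% and 27.1% for the start and end of chromosome 6. T9 shares were then 38% for the end of chromosome 6, 62% and 12% for the start and end of chromosome 9, 8% for the end of chromosome 11 and 26% for that of chromosome 17. With thresholds of 0.20 and -0.25, both parts of chromosome 6 were gained in 91.7% of T7 cells, the end of chromosome 6 in 98% and that of chromosome 17 in 84% of T9 cells. With the ratio from depth, shares were 12.5% for chromosome 2 and 2.08% for each part of chromosome 6 in T7, and 2%, 2% and 24% for the ends of chromosomes 6, 9 and 17 in T9. That ratio takes away each bin's median over the 3 tumours, and with it changes that most cells carry. Leaving out the 6 cells of each tumour that depart in 10% or more of bins, the running median over 5 bins, the removal of bins alike and the count of cell steps from 0.2 were added after the values were seen. The 500 kb bins and cell noise limit what can be seen to stretches of several bins, 1 tumour a group leaves the spread between tumours unknown, and whole-genome doubling is not visible.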
